A study of Arabidopsis thaliana with 4 samples.

Results

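Shoot apices of the Arabidopsis thaliana mutant as2-1 treated with 10-hydroxycamptothecin (10H-CPT) were compared with shoot apices of untreated wild type. The comparison sets the array of as2-1 plants on 10H-CPT against the array of Col-0 plants on DMSO, so genotype and treatment both change between its sides. It was made over the probe sets with a signal above the 40th percentile of all values on at least 1 of these 2 arrays, which were 14269 of the 22746 on the array. The wild type was accession Col-0, and as2-1 is a mutant allele of AS2, a gene named for the asymmetric leaves of its mutants. Plants of all groups were grown on MS agar for 14 days under 16 h of light and 8 h of dark, and shoot apices with leaf primordia were taken. DMSO, the solvent of 10H-CPT, stands alone in the untreated groups, and the labels give no dose of 10H-CPT. The series holds 4 samples, Col-0 and as2-1 each on DMSO and on 10H-CPT, with 1 array each. No group has a replicate, so no value below carries an error or a test, and a difference between 2 arrays cannot be set against the spread between samples of a group.

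AS2 is a plant-specific nuclear protein that acts with the MYB protein AS1 in leaf primordia. Together they keep class 1 KNOX meristem genes and genes of the lower (abaxial) leaf side repressed, so that the leaf forms an upper (adaxial) side and a flat blade. DNA topoisomerase I (TOP1) relaxes supercoiled DNA during transcription and replication, and camptothecins trap the enzyme on DNA after it has cut a strand. By its title, the study asked which genes AS2 and TOP1 regulate, and the pair described here is the one in which both differ.

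The median signals of the 4 arrays lay between 86.0 and 88.4, and between 13590 and 13711 probe sets per array were above the 40th percentile, a signal of 46.6. This value served as a floor: lower signals were set to it before ratios were taken, and a ratio with 1 side at the floor is given as a bound. The platform annotation pairs 13513 probe sets with 1 gene, and 7729 of these were measured in the comparison. Another 6250 measured probe sets are unnamed here, with a median signal of 225 on the array of untreated wild type against 178 for those with 1 gene. Neither AS2 nor AS1, the TOP1 genes, STM or WUS is among the genes named, so the genotype, the drug target and the tissue could not be followed through them. CLV3, which encodes the signal peptide of meristem stem cells, was below the floor on all 4 arrays, with signals of 7.90 in treated wild type, 5.50 in the untreated mutant and 1.10 in the treated mutant. LAS, an organ boundary gene, was below the floor on all 4 arrays too, and so were the 3 named root markers, LBD29, EXPA7 and LBD16.

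The treated mutant exceeded untreated wild type by 2-fold or more in 609 of the 14269 measured probe sets (4.27%) and fell short of it by as much in 503 (3.53%). The 2-fold threshold is a description of these 2 arrays and not a test. At least 4-fold differences numbered 145 higher and 112 lower, and at least 8-fold differences 39 and 20. The median size was 2.75-fold among the higher probe sets and 2.68-fold among the lower. Over all measured probe sets the log2 ratio had a median of -0.014 and quartiles of -0.27 and 0.25. Wild type was at the floor in 111 of the higher probe sets, and the treated mutant in 112 of the lower. The nearest log2 ratios on either side of the threshold were 1.0011 and 0.9979 for higher and -1.0009 and -0.9996 for lower probe sets. The brighter signal of the pair was 46.7 in the dimmest probe set that counted as measured and 46.6 in the brightest that did not.

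Dim probe sets passed 2-fold slightly more often than bright ones. Split into 3 classes of about equal size by mean signal of the pair, 8.89% of the dimmest, 7.13% of the middle and 7.36% of the brightest were past it. Among probe sets with 1 gene, 3.73% were higher and 2.95% lower, and among unnamed ones 5.02% and 4.32%. The named genes described below therefore leave out a somewhat larger share of the differences.

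**Figure D1:**
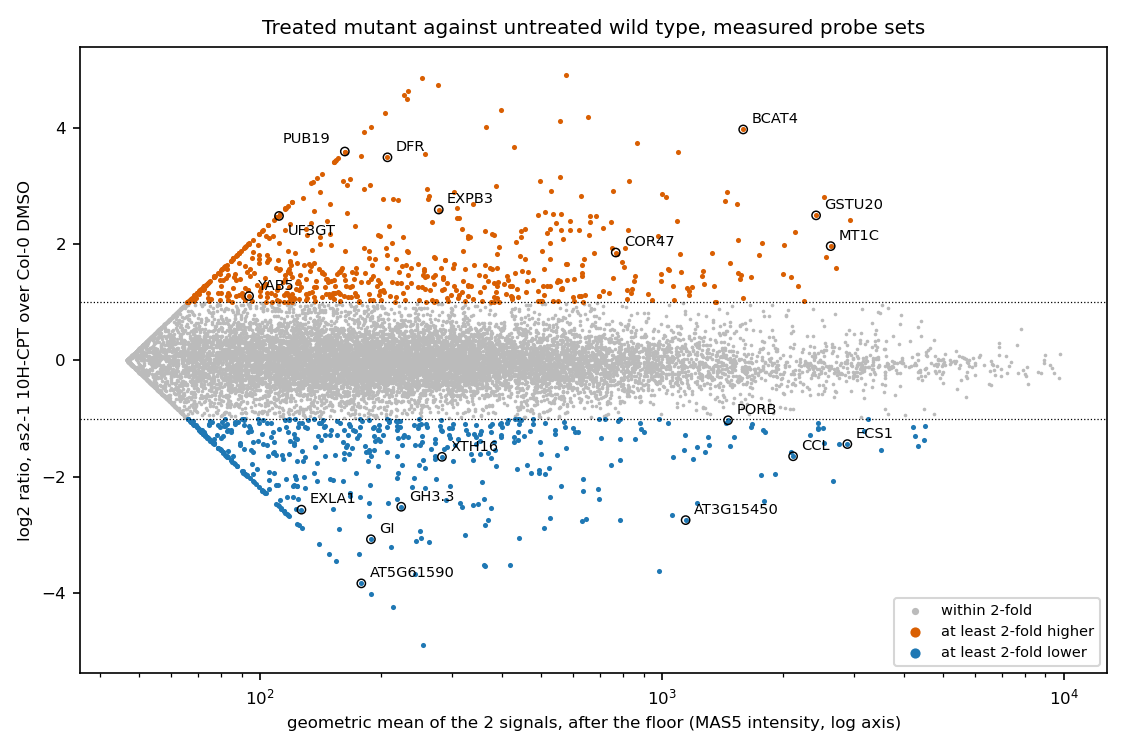
Log2 ratio of the treated mutant over untreated wild type (vertical axis) against the geometric mean of the 2 signals after the floor (horizontal log axis, MAS5 intensity), 1 point per measured probe set. The 609 higher probe sets are orange and the 503 lower ones blue. The diagonal edges on the left hold probe sets with 1 signal at the floor, and BCAT4, GSTU20 and MT1C stand out among the bright higher ones.

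The other 2 arrays show what the probe sets read when only genotype or only treatment differed. Over the 609 higher probe sets the median signal was 99.6 in untreated wild type, 158 in treated wild type, 153 in untreated mutant and 338 in treated mutant. Over the 503 lower ones the medians were 291, 159, 186 and 89.5 in the same order. The medians of these 2 arrays lay between those of the pair that chose the probe sets. Choosing by this pair favours such a position, here and for single genes below. Treated wild type and untreated mutant form a pair that shares no array with the comparison. Among the same 14269 probe sets, treated wild type exceeded the untreated mutant by 2-fold or more in 253 (1.77%) and fell short by as much in 324 (2.27%). These probe sets had to be above the floor on an array of the comparison itself, so those above it only in treated wild type or the untreated mutant are left out, and the shares of the pairs are not to be ranked against each other. Of the 609 higher probe sets, 85 (14.0%) were higher and 30 (4.93%) lower in that pair, and of the 503 lower ones 32 (6.36%) were higher and 105 (20.9%) lower. The median log2 ratio of treated wild type over untreated mutant was 0.10 for the higher set, -0.26 for the lower set and -0.003 over all.

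Of the 687 loci in 30 gene lists chosen for leaf development, TOP1 inhibition and stress, 100 had a probe set of their own and 67 were measured. The lists are thus seen through few members, and a count below describes those members only. They were also chosen with earlier results of these data known, so a count on a list is not independent of these arrays. Signals of a gene are given in the order untreated wild type, treated wild type, untreated mutant, treated mutant. A lower signal in bulk tissue may come from fewer cells of a type or from less RNA per cell, which cannot be told apart.

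**Figure D2:**
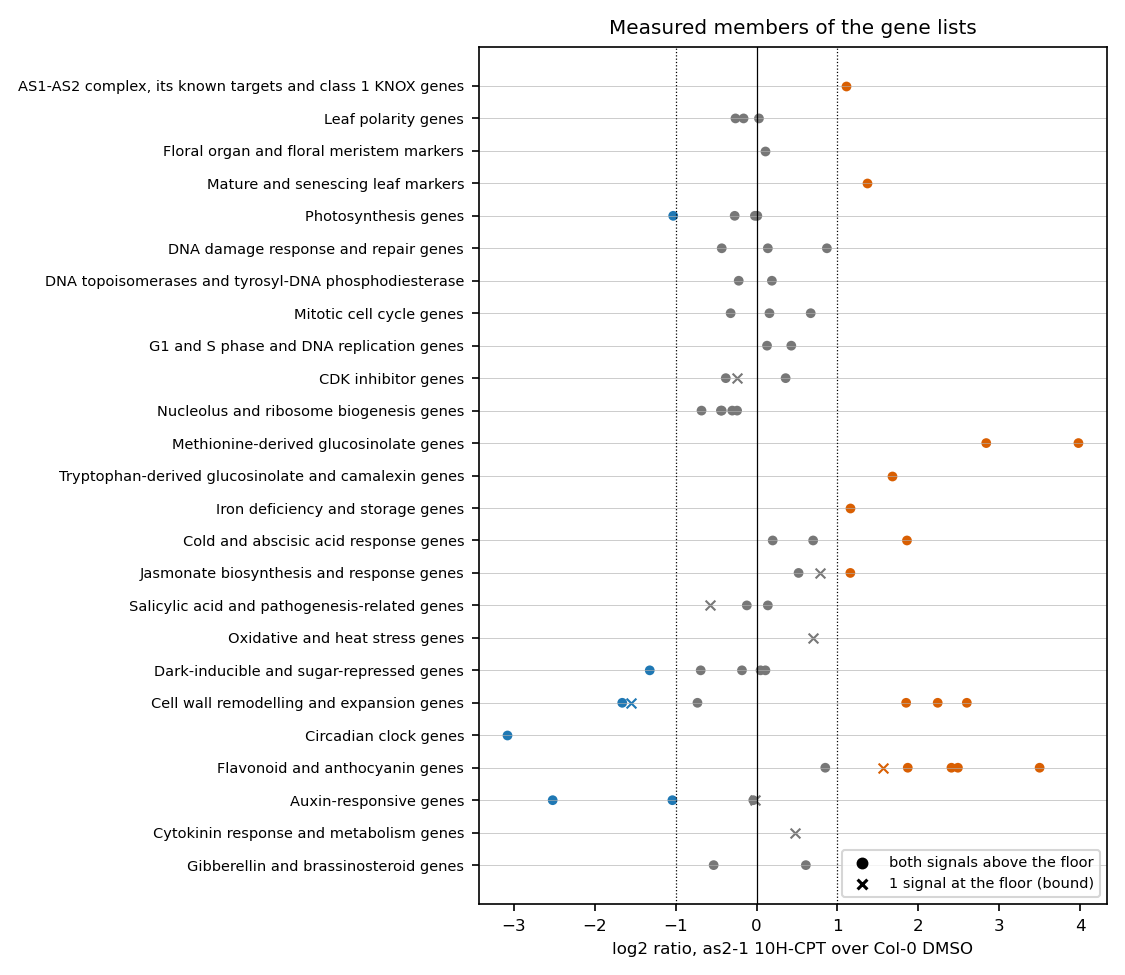
Log2 ratio of the treated mutant over untreated wild type (horizontal axis) for the measured members of each gene list (rows), 1 mark per probe set; crosses are bounds with 1 signal at the floor, and dotted lines mark 2-fold. Flavonoid and glucosinolate genes lie to the right, and GI and GH3.3 far to the left. The few measured members of the cell cycle, DNA damage and nucleolus lists stay inside the lines, as did most measured probe sets.

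Among AS1-AS2 complex genes, their targets and class 1 KNOX genes, only YAB5 was measured. YAB5 belongs to the YABBY family of abaxial transcription factors, and its signals were 63.8, 75.7, 114 and 138. It was 2.16-fold higher in the treated mutant, with both mutant arrays above both wild-type arrays. The 3 measured leaf polarity genes stayed within 2-fold. YAB3, another YABBY gene, read 254, 240, 180 and 228. PHV, an HD-ZIP III gene of the adaxial side, read 489, 641, 444 and 409. AGO7, which acts in the trans-acting small RNA pathway that limits abaxial factors, read 69.0, 88.4, 137 and 70.3, with the highest signal in the untreated mutant. AGL24, the only measured gene of the floral list, read 274, 230, 227 and 295.

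Glucosinolates are sulfur-rich defence compounds of the cabbage family, and the aliphatic ones are built from methionine whose side chain is lengthened first. All 3 measured genes of the methionine-derived and tryptophan-derived glucosinolate lists were at least 2-fold higher in the treated mutant. The share over all measured probe sets was 4.27%. BCAT4, the aminotransferase that opens the chain elongation of methionine, read 401, 6471, 2213 and 6321. That is 15.8-fold higher in the treated mutant than in untreated wild type and within 1.02-fold of treated wild type, so both treated arrays stood together above the untreated mutant. AT2G31790, listed among the methionine-derived glucosinolate genes, read 235, 1541, 663 and 1686 and was 7.17-fold higher. UGT74B1, a glucosyltransferase of the glucosinolate core, read 824, 2465, 1768 and 2646 and was 3.21-fold higher. In each of the 3 genes untreated wild type was the lowest array, the untreated mutant came next, and the treated arrays differed from each other by less than 1.5-fold.

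Flavonoid and anthocyanin genes showed another order of the arrays. Anthocyanins are the red and purple pigments made at the end of the flavonoid pathway. Of 6 measured genes on the list, 5 were at least 2-fold higher and none lower, with a median log2 ratio of 2.14. Over all measured probe sets 4.27% were higher and the median was -0.014. DFR, the reductase at the entry to the anthocyanin branch, read 61.6, 176, 87.3 and 698, which is 11.3-fold. UF3GT, a glycosyltransferase that decorates anthocyanins, read 47.0, 68.8, 38.6 and 264, which is 5.62-fold. AT4G14090, on the same list, read 63.7, 96.4, 66.4 and 338, which is 5.31-fold. In these 3 genes the treated mutant stood alone at the top and the untreated mutant was within 1.5-fold of untreated wild type.

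UGT78D2, which adds glucose to flavonols and anthocyanidins, read 122, 186, 162 and 444 and was 3.65-fold higher. AT5MAT, an anthocyanin malonyltransferase, read 27.3, 50.5, 52.1 and 137, so that its ratio is at least 2.95-fold. UGT78D1, which adds rhamnose to flavonols, read 457, 550, 553 and 822 and stayed below 2-fold at 1.80-fold. The smallest ratio on the list was thus that of a flavonol enzyme, and all 6 genes had their highest signal in the treated mutant. CHIL, a non-catalytic relative of chalcone isomerase that raises flavonoid production, is not on the list and was chosen after its values were seen. It read 37.5, 183, 59.6 and 391, which is at least 8.38-fold.

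Cell wall remodelling genes went both ways. Of 6 measured list members, 3 were at least 2-fold higher and 2 at least 2-fold lower. Over all measured probe sets 4.27% were higher and 3.53% lower. The expansins, proteins that loosen the wall during growth, lay at both ends. EXPB3 read 113, 338, 304 and 685 and was 6.07-fold higher. EXPA15 read 257, 593, 554 and 1219 and was 4.74-fold higher. EXPA4 read 356, 626, 610 and 1286 and was 3.61-fold higher. In all 3 the single-change arrays were near each other, between the ends. EXPA8 went the other way, at 137, 151, 141 and 42.4, so that it was at least 2.93-fold lower, with the 3 other arrays close together.

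Families were also read from gene symbols, a step added after the values were seen. Of 9 measured expansins and expansin-like genes, 4 were at least 2-fold higher and 3 lower. The shares over all measured probe sets were 4.27% and 3.53%. EXPA20, at 174, 323, 255 and 525, was the fourth higher one. The expansin-like genes EXLA1 and EXLB1 were lower: EXLA1 read 309, 119, 164 and 51.9, which is 5.95-fold. EXLB1 read 219, 128, 73.5 and 34.6, which is at least 4.70-fold. The higher expansins were thus alpha and beta expansins, and the lower ones were EXPA8 and these expansin-like genes. EXLA2, the remaining expansin-like gene measured, read 138, 85.0, 101 and 169 and stayed within 2-fold.

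Enzymes that cut and rejoin xyloglucan, a polysaccharide of the wall, were split as well. XTH16 read 505, 570, 239 and 159 and was 3.17-fold lower. EXGT-A3 read 571, 447, 235 and 218 and was 2.62-fold lower. Both had the mutant arrays below the wild-type arrays. XTH32 read 346, 605, 495 and 896 and was 2.59-fold higher, while XTH19, at 202, 121, 272 and 122, stayed within 2-fold. CSLC04, a synthase of the xyloglucan backbone, read 421, 258, 440 and 121 and was 3.47-fold lower. The other measured CSLC genes, CSLC5, CSLC6 and ATCSLC08, stayed within 2-fold, at log2 ratios of 0.14, 0.04 and -0.26. Of 6 measured cellulose synthase-like genes, 2 were at least 2-fold lower and none higher, where 3.53% of all measured probe sets were lower. Of 6 measured cellulases of glycosyl hydrolase family 9, 3 were at least 2-fold higher and none lower. The share of all measured probe sets that were higher was 4.27%. GH9C2 had the highest ratio of the 6 cellulases at 5.62-fold, with signals of 279, 439, 694 and 1567.

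**Figure D3:**
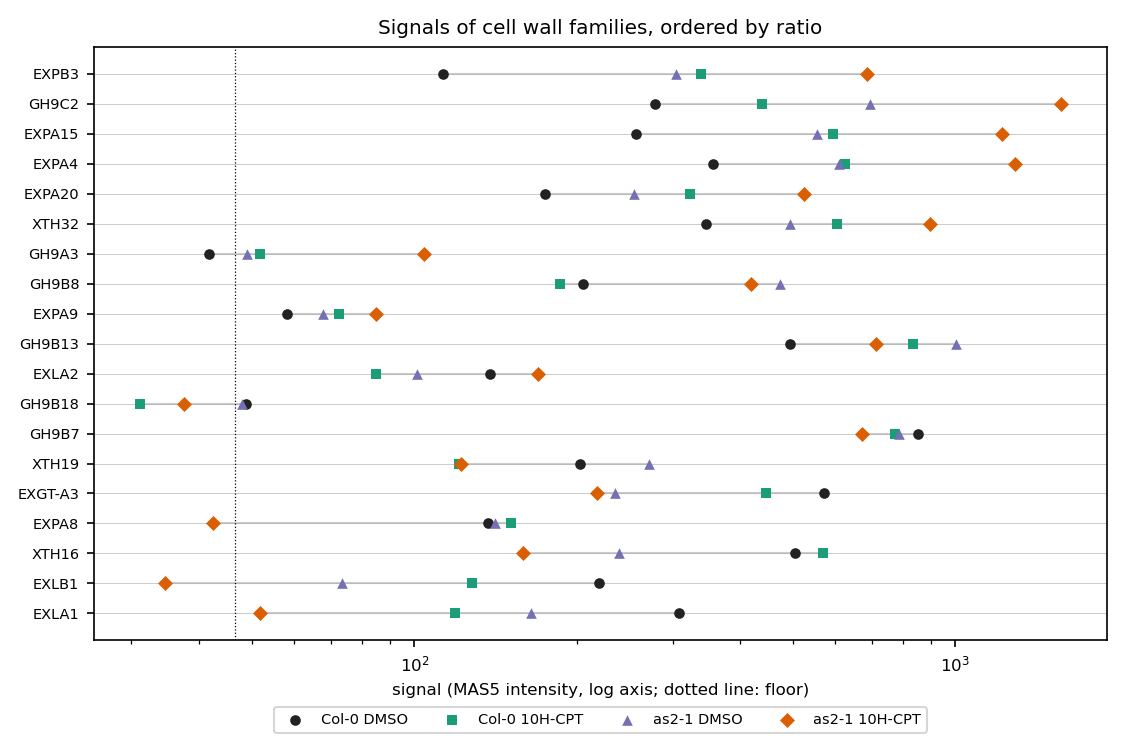
Signals on the 4 arrays (horizontal log axis, MAS5 intensity) of the 19 measured expansins, xyloglucan endotransglucosylase/hydrolases and family 9 cellulases, ordered from the highest to the lowest ratio of treated mutant over untreated wild type; the dotted line is the floor. The orange diamond of the treated mutant lies to the right of the other marks in most upper rows and to the left of them in the lowest rows.

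Of the clock and auxin lists, no measured member was 2-fold higher. GI, which encodes GIGANTEA, a protein of the circadian clock and of day length sensing, was the only clock gene measured. It read 548, 173, 414 and 64.9, which is 8.45-fold lower in the treated mutant. Both treated arrays were below both untreated arrays. Of the 4 measured auxin-responsive genes, 2 were at least 2-fold lower and none higher, where 3.53% of all measured probe sets were lower. GH3.3, which encodes an enzyme that joins auxin to amino acids, read 537, 422, 431 and 93.7 and was 5.73-fold lower, with only the treated mutant far from the rest. WES1, another enzyme of the GH3 family, read 1112, 802, 1115 and 541 and was 2.05-fold lower. The other members, YUC4 and GH3.9, had signals near the floor on all 4 arrays, so neither could be called 2-fold lower.

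The lists tied to DNA damage, topoisomerases, cell division and the nucleolus held no member past 2-fold, and few of their genes were named. Measured members numbered 3 for DNA damage, 2 for topoisomerases, 3 for mitosis, 2 for replication, 3 for CDK inhibitors and 5 for the nucleolus. Only 7.79% of all measured probe sets were past 2-fold, so finding none among so few does not set these lists apart. Of the DNA repair genes, ATMND1 had the highest ratio at 1.83-fold, from a signal of 54.7 in untreated wild type. The ligase gene ATLIG4 read 89.8, 99.5, 112 and 99.2. Among topoisomerases, TOPII, which passes 1 DNA duplex through another, read 383, 463, 301 and 329. TOP3A read 96.1, 137, 91.4 and 110. Both topoisomerase genes had their highest signal in treated wild type.

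The Aurora kinase genes, which act in mitosis, had log2 ratios of 0.16 for AUR1, 0.67 for AUR2 and -0.32 for AUR3. AUR2 read 108, 211, 121 and 171, with the treated arrays above the untreated ones. ICU2, the catalytic subunit of DNA polymerase alpha, read 76.6, 120, 62.8 and 103, and PRL, a subunit of the replicative helicase, read 222, 373, 204 and 244. For both, the treated array was above the untreated array within each genotype. The 3 measured CDK inhibitor genes had log2 ratios between -0.38 and 0.36. SIM, which promotes endoreduplication in trichomes, was the lowest of them at 347, 263, 447 and 268. The 5 measured nucleolus and ribosome biogenesis genes all had ratios below 1, from -0.68 to -0.24 on the log2 scale with a median of -0.43, against -0.014 over all probe sets. The lowest was AT2G40360, at 1821, 1676, 1632 and 1140.

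Apart from the auxin list, each stress and hormone list held at most 1 member past 2-fold, out of at most 3 measured. Over all measured probe sets 4.27% were higher and 3.53% lower, and so few members do not describe a list. COR47, a dehydrin induced by cold and abscisic acid, read 403, 425, 635 and 1460 and was 3.62-fold higher, while COR15A and COR15B, at log2 ratios of 0.70 and 0.20, stayed within 2-fold. PDF1.2, a defensin of the jasmonate response, read 49.7, 209, 41.0 and 111 and was 2.24-fold higher, with its highest signal in treated wild type. On the same list, PDF1.2b and THI2.1 stayed within 2-fold, at log2 ratios of 0.78, with untreated wild type at the floor, and 0.52. WRKY53, a transcription factor of leaf senescence, read 77.1, 35.7, 104 and 199 and was 2.58-fold higher. COR47 and WRKY53 had both mutant arrays above both wild-type arrays. PYE, a regulator of the iron deficiency response, read 52.4, 122, 72.7 and 117 and was 2.24-fold higher, and it was the only measured gene of the iron list. The 3 measured salicylic acid genes, SAG101, CHI (a chitinase gene here) and GRX480, stayed within 2-fold, at log2 ratios of 0.14, -0.12 and, with the treated mutant at the floor, -0.58. NDB2, of the oxidative and heat stress list, and ARR15, of the cytokinin list, stayed within 2-fold with untreated wild type at the floor. GID1A and GID1B, of the gibberellin and brassinosteroid list, had log2 ratios of -0.53 and 0.61. Of the phosphate, rapid stress transcription factor and trichome lists no member was measured.

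Photosynthesis and sugar genes were mostly level. RCA, the activase of Rubisco, read 2452, 2756, 1513 and 2425, and PRK, a kinase of the Calvin cycle, read 912, 877, 657 and 918. In both, the untreated mutant was the lowest array. PORB, a light-dependent enzyme of chlorophyll synthesis, was the member past 2-fold, at 2087, 1753, 1537 and 1021, which is 2.04-fold lower. Of 5 measured dark-inducible and sugar-repressed genes, AKINBETA1, a subunit of the energy-sensing kinase SnRK1, was 2.50-fold lower, at 545, 313, 286 and 218. ATL8 read 278, 129, 200 and 172, and the other 3 had log2 ratios between -0.18 and 0.11. Transcripts of the chloroplast genome had a median log2 ratio of -0.11 over 66 measured probe sets, with 3 at least 2-fold lower and none higher, where 3.53% of all measured probe sets were lower. The lowest was atpH, an ATP synthase subunit, at 2149, 1180, 2485 and 666. For the mitochondrial genome the median was -0.49 over 10 probe sets, from -0.95 to -0.07, and none passed 2-fold.

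Among named genes with both signals above the floor, the 15 highest ratios ran from 15.8-fold for BCAT4 to 5.33-fold for AT2G43550. In 13 of the 15 the treated mutant was the highest of the 4 arrays, a position that choosing genes by this array favours. In 6 of them treated wild type lay within 1.5-fold of the treated mutant, and the untreated mutant did so in none. GSTU20, a glutathione S-transferase, belongs to those 6, at 1016, 5656, 2849 and 5753. AT1G21440, for which the tables used here give no name, read 553, 3109, 1337 and 3717. These follow the same order as the glucosinolate genes above.

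APL3, a large subunit of the enzyme that starts starch synthesis, showed the opposite split. It read 55.6, 57.4, 171 and 333 and was 5.99-fold higher in the treated mutant, with the wild-type arrays level and low. AT1G80130 read 68.0, 55.9, 105 and 396 and was 5.82-fold higher, again with no excess in treated wild type. AT2G41190, at 57.6, 101, 147 and 471, and AT1G73390, at 111, 149, 238 and 832, had each single change between the ends. The ratios of these last genes were 8.19-fold and 7.53-fold.

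Among named genes with wild type at the floor, AT5G05250 had the highest bound. It read 30.5, 1116, 238 and 1110, so it was at least 23.8-fold higher, and both treated arrays were level. AT1G47400 read 44.6, 930, 110 and 763 and was at least 16.4-fold higher. AT1G20070 read 31.6, 91.9, 173 and 895 and was at least 19.2-fold higher, and here the treated mutant stood far above all others. AT1G73600, at 41.2, 327, 136 and 709, was at least 15.2-fold higher. PUB19, a U-box ubiquitin ligase that dampens abscisic acid responses, was below the floor on 3 arrays, at 4.80, 4.30 and 34.0, and read 566 in the treated mutant. Its ratio is at least 12.1-fold.

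**Figure D4:**
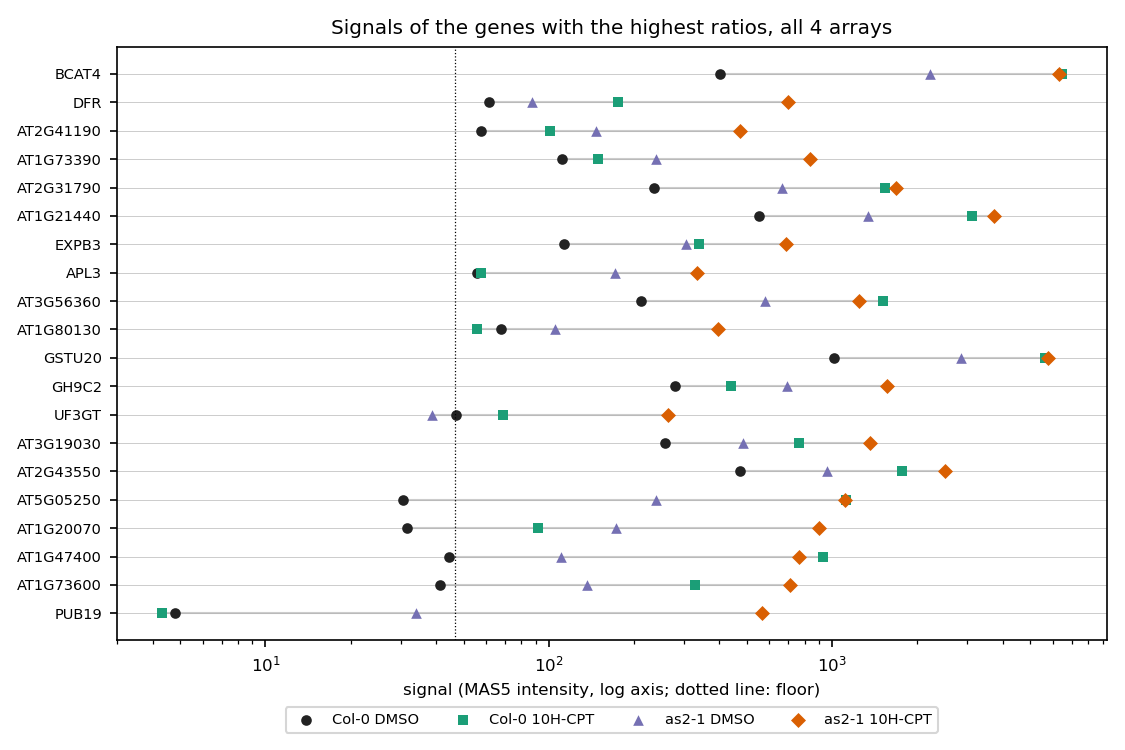
Signals on the 4 arrays (horizontal log axis, MAS5 intensity) of the 15 named genes with the highest ratios and, below them, the 5 with the highest bounds; the dotted line is the floor. Green squares (treated wild type) sit beside the orange diamonds (treated mutant) for BCAT4, AT2G31790, GSTU20 and AT5G05250, and near the black circles (untreated wild type) for APL3, AT1G80130 and PUB19.

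Among named genes with both signals above the floor, the 15 lowest ratios ran from 14.3-fold lower for AT5G61590 to 5.58-fold lower for AT3G26510. The treated mutant was the lowest of the 4 arrays in all 15, again a position that choosing genes by this array favours. AT5G61590 (DEWAX), a transcription factor that represses cuticular wax genes, read 675, 273, 180 and 47.2, so that each step down was at least 2.47-fold against untreated wild type. AT5G03350 read 1234, 172, 421 and 106 and was 11.7-fold lower. AT4G10270 read 773, 285, 803 and 89.1 and was 8.69-fold lower, and AT4G27450 read 2676, 978, 2494 and 421 and was 6.35-fold lower. In the last 2 genes the untreated mutant was level with untreated wild type, and only the treated arrays were lower.

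AT3G15450 and AT5G44020 had the larger step with genotype. AT3G15450 read 2972, 1651, 758 and 441 and was 6.73-fold lower, and AT5G44020 read 801, 561, 218 and 143 and was 5.61-fold lower. AT2G10940, at 1665, 1203, 1163 and 251, resembled GH3.3 in that the other 3 arrays were within 1.5-fold of each other. Among named genes with the treated mutant at the floor, AT5G20790 had the lowest bound. It read 761, 43.9, 526 and 7.90, at least 16.3-fold lower, and was at or below the floor on both treated arrays. AT1G33055 read 511, 62.5, 314 and 18.1 and was at least 11.0-fold lower. AT4G33560 read 299, 83.9, 321 and 5.80 and was at least 6.41-fold lower.

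**Figure D5:**
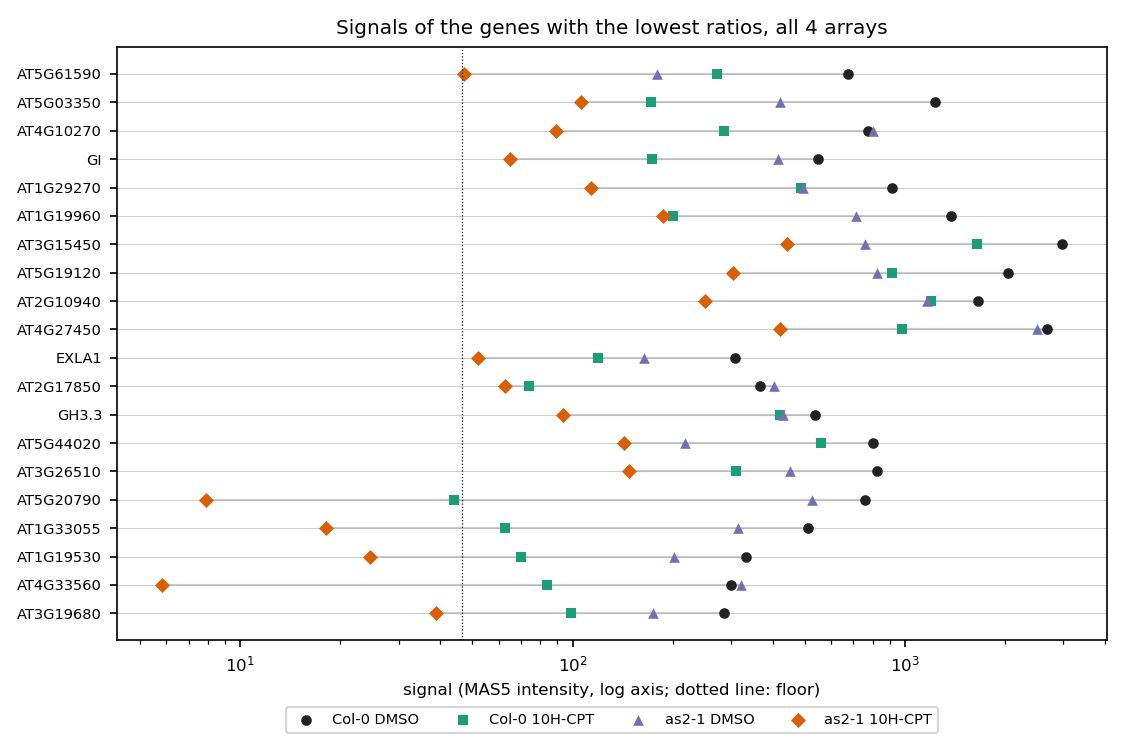
Signals on the 4 arrays (horizontal log axis, MAS5 intensity) of the 15 named genes with the lowest ratios and, below them, the 5 with the lowest bounds; the dotted line is the floor. The orange diamond of the treated mutant is leftmost in every row, the purple triangle of the untreated mutant lies beside the black circle of untreated wild type for AT4G10270, AT4G27450 and AT4G33560, and it lies closer to the diamond for AT3G15450 and AT5G44020.

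Other genes with a known role, chosen after their values were seen, fill in both directions. HIS1-3, a linker histone induced by drought, read 146, 135, 183 and 501 and was 3.44-fold higher, with the treated mutant alone at the top. JAL23, a jacalin-related lectin, read 327, 878, 139 and 1705 and was 5.21-fold higher, although the untreated mutant was 2.36-fold below untreated wild type. Of the 4 measured jacalin-related lectins 3 were at least 2-fold higher, where 4.27% of all measured probe sets were. MT1C, a metallothionein, read 1330, 2215, 2933 and 5195, and its log2 ratio of 1.97 had both single changes between the ends. APS3, an ATP sulfurylase of sulfate assimilation, read 193, 636, 339 and 601 and was 3.11-fold higher. CBL, which makes homocysteine on the way to methionine, read 790, 1374, 917 and 1721 and was 2.18-fold higher. Both had the treated arrays above the untreated ones, as the glucosinolate genes did.

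On the lower side, OSM34, an osmotin-like protein gene, read 266, 40.4, 129 and 25.9 and was at least 5.71-fold lower. EXO, a gene of brassinosteroid-driven growth, read 437, 270, 140 and 80.0 and was 5.46-fold lower. ARL, a relative of the organ size gene ARGOS, read 507, 174, 924 and 112. Its 4.54-fold lower signal in the treated mutant stood beside a 1.82-fold higher signal in the untreated mutant. THE1, a receptor kinase that senses the state of the wall, read 355, 275, 247 and 120 and was 2.97-fold lower. STOMAGEN, a peptide from the leaf interior that promotes stomata, read 371, 220, 231 and 165 and was 2.25-fold lower. TCP15, a class I TCP growth regulator, read 527, 324, 365 and 220 and was 2.40-fold lower. In EXO, THE1, STOMAGEN and TCP15 both single changes lay between the ends, a position that choosing genes by the ends favours.

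The treated mutant was at least 2-fold above all 3 other arrays in 185 probe sets and at least 2-fold below all 3 in 80. The same counts, over probe sets above the floor on any of the 4 arrays, were 49 and 55 for untreated wild type, 16 and 25 for treated wild type and 13 and 14 for the untreated mutant. With 1 array per group, what belongs to the combined condition and what belongs to that array cannot be told apart. Of the named genes above the floor on all 4 arrays, DFR stood farthest above the others, 1.98 on the log2 scale over the next highest array. GH3.3 and AT2G10940 stood farthest below, by -2.17 and -2.21. Larger gaps were found in unnamed probe sets. Probe set 245399_at read 52.3, 82.5, 76.3 and 604, a gap of 2.87, and 265066_at read 932, 428, 297 and 49.0, a gap of -2.60.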

How the data were processed

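Per the labels' protocols, total RNA of the 4 samples was turned into biotinylated cRNA and hybridised to Affymetrix arrays. The deposited values are MAS5 signal intensities on a linear scale, 1 per probe set and array, per the submitters' processing notes. Sources used here do not give its version, scaling target or detection calls. MAS5 subtracts mismatch from perfect-match signals, which makes ratios of dim probe sets noisy. Arrays were rescaled to a common trimmed mean (2% at each end, factors 0.9994 to 1.0006), floored at the 40th percentile of all values (46.6), and taken to log2. The number of arrays, 1 per group, limits the precision, and no test was made. Probe sets were named through GEO's platform annotation when it gives 1 gene (13513 probe sets, against 503 with several and 8730 with none), and 13436 of these were matched to the RefSeq table of TAIR10.1, used for names only. Named genes were the 15 highest and 15 lowest ratios with both signals above the floor, the 5 extreme bounds each way, up to 4 list members past 2-fold per direction, and the probe sets in which the treated mutant stood farthest apart. Of unnamed ones only a few are printed. The members and lists were chosen with earlier results of these data known. Calculations used Python 3.11.15, numpy 2.4.6 and pandas 2.3.3, and were tested on simulated data. The planned search of promoter motifs was not run, since no sequences were used here.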

Additional observations from a re-analysis of the deposited data

Results flagged for a closer look

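Probe set 266142_at, unnamed here, read 270 in untreated wild type, 113 in treated wild type, 79.4 in the untreated mutant and 1284 in the treated mutant. It drew attention because as2-1 and Col-0 differed in opposite directions on the 2 media. The log2 ratio of as2-1 over Col-0 was -1.77 on DMSO and 3.51 on 10H-CPT. The difference was not tested, since each condition has 1 array.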

How the results depend on the processing

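The 609 higher and 503 lower probe sets numbered 609 and 503 with the values as deposited, 604 and 501 after quantile normalization, and 586 and 488 without the _s_at and _x_at probe sets. With a floor at the 20th percentile (9.9) they were 1077 and 923, and with a floor at the 60th (137.3) 344 and 265. At a 1.5-fold threshold they were 1438 and 1396, and at 3-fold 248 and 194. Among probe sets that name 1 gene, an alternative chosen after seeing the data, they were 288 and 228. The higher share was 54.8%, and 50.7% to 56.5% under these alternatives. Of the named log2 ratios, 7 of 67 moved by over 0.5 with the lower floor and 31 of 64 with the higher floor, and none changed sign; the floor sets dim signals, so bounds move with it by construction. No paired analysis was possible because each group has 1 array. Dim signals limit the comparison too: 679 measured probe sets were at the floor in untreated wild type and 578 in the treated mutant.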

Other observations

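QQS, a gene found only in Arabidopsis that affects starch content, belongs to no list and was singled out after its values were seen. It read 34.7 in untreated wild type, 62.5 in treated wild type, 454 in the untreated mutant and 385 in the treated mutant, so it was at least 8.26-fold higher in the treated mutant with both mutant arrays far above both wild-type arrays. APL4, a subunit of the enzyme that starts starch synthesis, like APL3, read 102, 98.2, 179 and 217 in the same order and was 2.14-fold higher. MSRB9, a methionine sulfoxide reductase, had the mutant arrays level on the other side, at 627, 294, 141 and 140, and was 4.48-fold lower.

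The genes below were also picked after their values were seen. CCL read 3755, 1814, 2283 and 1196 and was 3.14-fold lower, and FHL, which helps bring phytochrome A into the nucleus, read 219, 54.6, 260 and 74.1 and was 2.96-fold lower. AFR, a positive factor of far-red signalling, read 65.3, 81.0, 78.7 and 215, a log2 ratio of 1.72. The chlorophyll-binding antenna genes LHCB4.2 and LHCB4.3 differed in direction, LHCB4.2 being 2.27-fold lower (3686, 2188, 2377 and 1626) and LHCB4.3 2.06-fold higher (159, 218, 194 and 329). AT3G10040 (HRA1), a regulator of the low-oxygen response, read 200, 63.5, 180 and 30.2 and was at least 4.28-fold lower, with both treated arrays below both untreated ones.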
